A study of Homo sapiens with 18 samples.

Results

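GR binding was examined at the genes that encode the subunits of AP-1 in U2OS-GRα cells transfected with 6 siRNA combinations. The 10 genes, chosen by name, were FOS, FOSB, FOSL1, FOSL2, JUN, JUNB, JUND, ATF3, BATF and BATF3, among 20046 protein-coding genes of GENCODE release 44. A GR binding region (GBR) was assigned to a gene when its summit lay within 100 kb of the transcription start site (TSS) of the canonical transcript, on the GRCh38 assembly. Of the 20642 GBR called over the 6 lists, 66 were assigned in this way, and they merged into 35 separate regions. No GBR had more than 1 of the genes in reach (0 of 66).

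U2OS is an established human osteosarcoma line. The U2OS-GRα derivative used throughout was stably transfected with GRα, the hormone-binding form of the glucocorticoid receptor, so that the values include binding of an introduced receptor. Every group carried siRNA for 48 h before 100 nM dexamethasone (dex), a synthetic glucocorticoid, was added for 1 h, and no group without dex was analysed here. The groups were control siRNA of no specific target (siNS/siNS), depletion of the coregulator Hic-5 alone (siHic5/siNS), depletion of the chromatin remodeler CHD9 alone (siCHD9/siNS) or with Hic-5 (siCHD9/siHic5), and depletion of the remodeling ATPase BRM alone (siBRM/siNS) or with Hic-5 (siBRM/siHic5). Each was represented by 2 ChIP libraries and 1 input library, and by 1 deposited list of GBR called on the pooled replicates. No spread between replicates could therefore be computed, no test was made, and counts are descriptions of 6 lists. The peak lists carry no measure of how far Hic-5, CHD9 or BRM were depleted.

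AP-1 is a dimer of basic leucine zipper proteins of the FOS, JUN, ATF and BATF families that binds the sequence TGAGTCA or its reverse complement TGACTCA, or the related cyclic AMP response element (CRE, TGACGTCA). FOS, FOSB, JUN, JUNB and ATF3 are immediate-early genes, transcribed within minutes of a stimulus. Ligand-bound GR binds the glucocorticoid response element (GRE), a palindrome of inverted half-sites, and can also be tethered to or repress AP-1. Expression of the subunit genes was not analysed here. The question the 6 groups address is at which sites Hic-5 limits GR occupancy, and whether the occupancy gained in its absence requires CHD9 or BRM.

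The DNA under the strongest GBR of each gene is given first, since the GBR differ in whether a match to the receptor's own motif was found. Each sequence is 101 bases of the plus strand of GRCh38 centered on the summit of the siHic5/siNS GBR with the highest −log10 p-value near that gene. Regions are named by the gene and the distance from its TSS, with a minus sign for upstream. Capitals mark matches to the GRE (allowing 1 mismatch at its 10 defined positions), to AP-1 or to ETS, and lower case marks all other bases. The first pair holds a GRE match at the summit, the next holds ETS or AP-1 matches and no GRE match, and the last 3 hold no match in the bases shown. Half-sites and GRE-like stretches with more than 1 mismatch are not marked.
BATF +13.6 kb (chr14:75535989-75536089): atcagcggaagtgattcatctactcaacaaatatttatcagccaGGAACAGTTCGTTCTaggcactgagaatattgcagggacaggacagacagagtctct
FOS +62.3 kb (chr14:75341116-75341216): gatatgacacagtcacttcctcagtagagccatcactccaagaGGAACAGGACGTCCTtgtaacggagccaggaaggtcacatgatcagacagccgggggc
FOSB -43.5 kb (chr19:45424465-45424565): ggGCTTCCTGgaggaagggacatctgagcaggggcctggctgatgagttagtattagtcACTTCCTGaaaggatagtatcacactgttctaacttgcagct
FOSL1 -15.5 kb (chr11:65915865-65915965): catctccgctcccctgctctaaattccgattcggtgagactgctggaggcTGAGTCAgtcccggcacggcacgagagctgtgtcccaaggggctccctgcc
JUNB -7.4 kb (chr19:12784036-12784136): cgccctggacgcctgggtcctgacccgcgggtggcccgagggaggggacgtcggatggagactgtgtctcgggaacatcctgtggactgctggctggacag
JUN -31.2 kb (chr1:58815246-58815346): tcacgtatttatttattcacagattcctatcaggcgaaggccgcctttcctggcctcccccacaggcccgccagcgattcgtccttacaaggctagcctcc
FOSL2 -2.4 kb (chr2:28390396-28390496): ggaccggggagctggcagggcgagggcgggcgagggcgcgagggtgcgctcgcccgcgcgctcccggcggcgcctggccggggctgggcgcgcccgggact

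Promoters were a second place where GBR were found. The strongest JUND region was its promoter, and FOS and FOSL2 each had a GBR within 1 kb upstream of the TSS, none of which has a GRE, AP-1 or ETS match in the 101 bases around the summit.
JUND -0.3 kb (chr19:18281895-18281995): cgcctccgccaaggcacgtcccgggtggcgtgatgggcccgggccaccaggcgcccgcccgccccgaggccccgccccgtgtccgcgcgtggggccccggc
FOS -0.4 kb (chr14:75278330-75278430): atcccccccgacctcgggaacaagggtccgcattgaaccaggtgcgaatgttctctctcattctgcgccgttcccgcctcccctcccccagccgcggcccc
FOSL2 -0.2 kb (chr2:28392624-28392724): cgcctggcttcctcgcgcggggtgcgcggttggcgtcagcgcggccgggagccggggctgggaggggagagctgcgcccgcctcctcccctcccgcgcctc
The JUND promoter is shown also in the direction of the gene, as the 250 bases before the TSS in RefSeq (chr19:18281623-18281872, GRCh38.p14, minus strand), because it carries a CRE, in capitals, at positions -200 to -193 before the TSS and under the GBR.
JUND promoter: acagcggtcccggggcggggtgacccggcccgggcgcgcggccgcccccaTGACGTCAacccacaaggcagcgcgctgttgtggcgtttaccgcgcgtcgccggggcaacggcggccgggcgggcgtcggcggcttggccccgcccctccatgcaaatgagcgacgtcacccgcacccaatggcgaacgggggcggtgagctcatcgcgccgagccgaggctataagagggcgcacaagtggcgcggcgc

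Depletion of Hic-5 was accompanied by more GBR near these genes. There were 31 such GBR in the siHic5/siNS list of 9533, against 7 in the siNS/siNS list of 2582. The siCHD9/siNS list held 5 of 1415, the siCHD9/siHic5 list 12 of 2451, the siBRM/siNS list 2 of 1278 and the siBRM/siHic5 list 9 of 3383. Thus, at the AP-1 subunit genes as in the lists as a whole, the siHic5/siNS list was the longest, and the ratio of siHic5/siNS to siNS/siNS GBR was 4.43 near the genes and 3.69 over the whole lists. The lists did not end at the same cutoff. Their lowest −log10 q-value ranged from 7.26 in siBRM/siNS to 14.2 in siBRM/siHic5, so that a GBR absent from a list may lie below its cutoff. With all lists held to a −log10 q-value of 14.2, the GBR near the genes numbered 21 in siHic5/siNS and 2 in siNS/siNS, a ratio of 10.5 against 4.02 over the whole lists, and those in siCHD9/siHic5 and siBRM/siHic5 numbered 3 and 9. Read totals per library are not in the lists, and their part in the number of GBR was not tested.

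**Figure D1:**
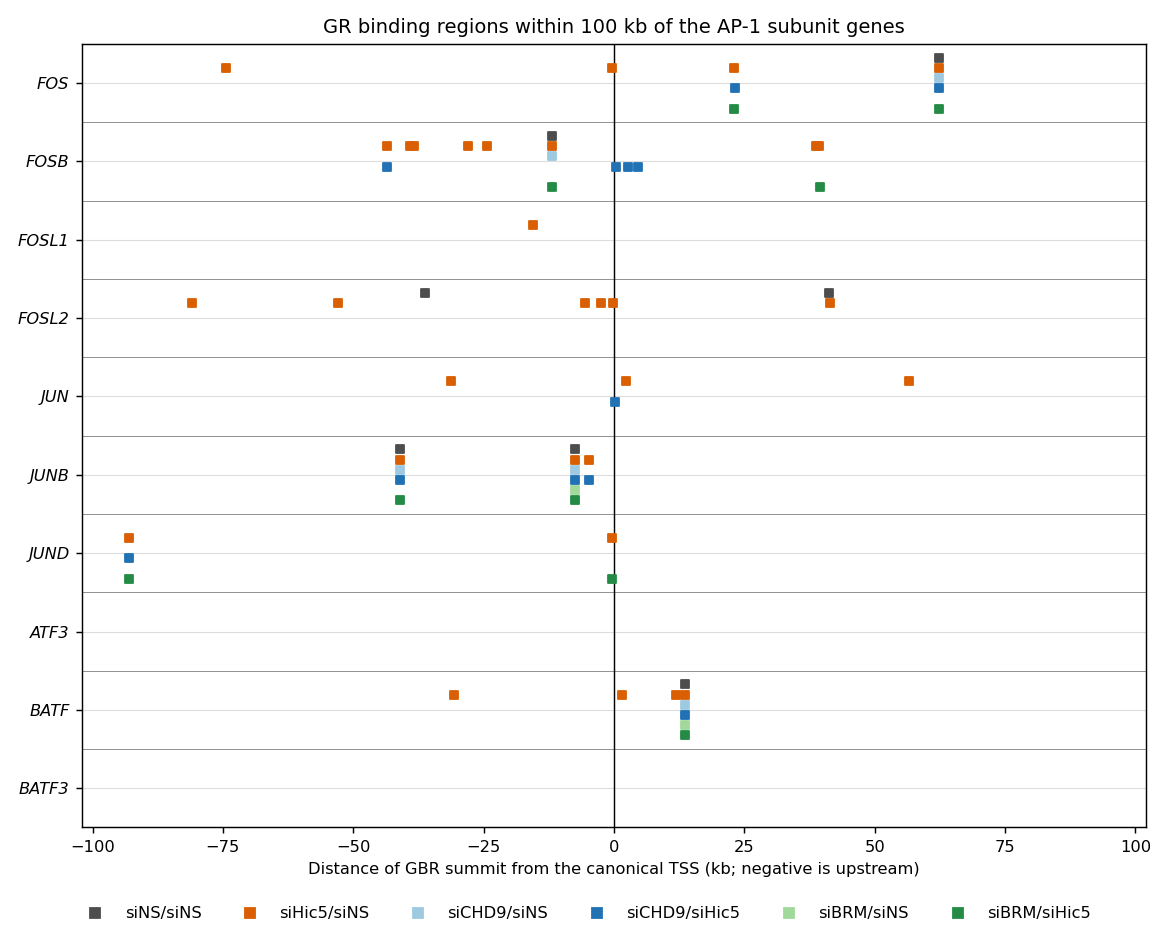
Position of each GBR summit relative to the TSS of the gene (x axis, kb, negative upstream) for the 10 genes (y axis), with 1 square per called GBR colored by siRNA combination. The 31 siHic5/siNS GBR are spread over 8 genes, the 3 dark blue squares just downstream of the FOSB TSS have no counterpart in another list, and ATF3 and BATF3 have none.

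Genes with a GBR within 100 kb were counted in each list and set beside all protein-coding genes. In siNS/siNS cells 5 of the 10 genes had a GBR, where 17.0% of all genes did, and in siHic5/siNS cells 8 of 10, where 43.6% did. FOS, FOSB, FOSL2, JUNB and BATF had a GBR in both lists, and FOSL1, JUN and JUND had one in siHic5/siNS and not in siNS/siNS. With CHD9 depleted, 4 of 10 genes had a GBR in siCHD9/siNS (10.5% of all genes) and 6 of 10 in siCHD9/siHic5 (16.4%). With BRM depleted, the counts were 2 of 10 in siBRM/siNS (9.92%) and 5 of 10 in siBRM/siHic5 (22.2%). JUNB and BATF were the genes that had a GBR in all 6 lists. These shares lay above those of all genes in each list, taken at its own cutoff. The 10 genes were however not chosen at random, and neighbouring GBR are not independent.

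**Figure D2:**
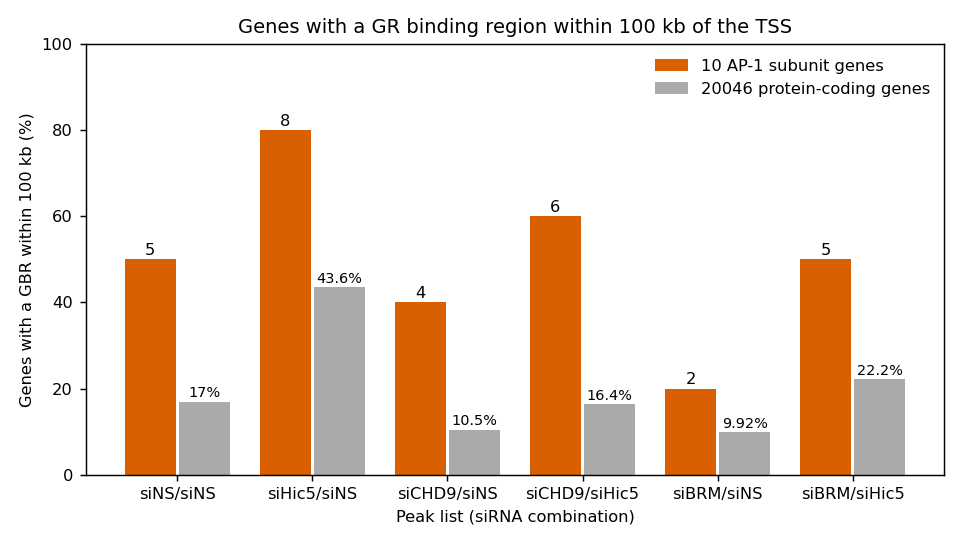
Percentage of genes with at least 1 GBR within 100 kb of the TSS (y axis) in each list (x axis), for the 10 AP-1 subunit genes (orange, number of genes above the bar) and for 20046 protein-coding genes (gray). The orange bars run from 2 genes in siBRM/siNS to 8 in siHic5/siNS, and the gray bars from 9.92% to 43.6%.

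The genes differed widely in how many GBR surrounded them. In siHic5/siNS cells FOSB had 8, FOSL2 6, FOS and BATF 4 each, JUN and JUNB 3 each, JUND 2 and FOSL1 1. As many as 8 GBR within 100 kb were found at 0.504% of protein-coding genes and as many as 6 at 1.54%, whereas 43.6% had at least the 1 GBR seen at FOSL1. Genes close together share GBR, and at FOSB the nearest protein-coding TSS was that of ERCC1, a DNA repair endonuclease gene, for 5 regions and that of VASP, an actin regulator gene, for 2. Over the 35 regions the AP-1 subunit gene had the nearest protein-coding TSS for 23. There were 22 regions upstream and 13 downstream of the TSS, 4 within 1 kb and 10 within 5 kb. Summits lay between genes in 16 regions, in introns in 14, in untranslated exon sequence in 3 and in coding exons in 2.

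FOS encodes the founding member of the FOS family, whose proteins dimerize with JUN proteins. The region with the strongest GBR lay 62.3 kb downstream (chr14:75340840-75341582), between genes, and was called in 5 lists. Its −log10 p-value was 103 in siHic5/siNS (rank 446 of 9533), 56.1 in siBRM/siHic5, 20.3 in siCHD9/siHic5, 17.7 in siNS/siNS (rank 1685 of 2582) and 12.9 in siCHD9/siNS, with no call in siBRM/siNS. It lay in the top 4.68% of the siHic5/siNS list and the top 65.3% of siNS/siNS, but ranks in lists of unequal length and cutoff do not compare the conditions. A second GBR, 23.1 kb downstream, was called in the 3 lists from cells depleted of Hic-5, with 42.8 in siHic5/siNS, 19.7 in siCHD9/siHic5 and 18.5 in siBRM/siHic5. At the promoter itself the GBR 0.448 kb upstream of the TSS (chr14:75278159-75278750, siHic5/siNS −log10 p-value 16.1) was in no other list, and neither was the one 74.5 kb upstream (28.5). No match to the GRE, to AP-1 or to the ETS consensus searched was found in the 1 kb centered on the summit of the promoter GBR. Sites that depart further from these patterns were not counted, so their absence is not shown. At 139 bp downstream of this summit lay CCATATTAGG, a match to the CArG box, the core of the serum response element that SRF binds.

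FOSB, a FOS family member whose protein dimerizes with JUN proteins in the same way, had 11 regions, the most of any of the genes. The siHic5/siNS GBR with the highest value lay 43.5 kb upstream in an intron of ERCC1 (chr19:45424185-45424900), with 57.9 in siHic5/siNS (rank 1294) and 17.8 in siCHD9/siHic5. Its summit was 0.598 kb from the ERCC1 TSS, so it is a promoter-proximal GBR of that gene. A further 4 GBR in ERCC1 introns, 39.1, 38.4, 28.0 and 24.3 kb upstream, were called in siHic5/siNS and in no other list, with −log10 p-values of 30.7, 16.0, 24.1 and 33.1. On the other side, the GBR 38.8 kb downstream (16.3), in an untranslated part of VASP, was in siHic5/siNS alone. The GBR 39.4 kb downstream was in siHic5/siNS (24.2) and siBRM/siHic5 (19.3). Their siHic5/siNS summits lay 0.663 and 0.075 kb from the VASP TSS, so that both are promoter-proximal to VASP.

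The FOSB region 12.0 kb upstream (chr19:45455714-45456466) was called in a combination of lists that no other region had. The same holds for the FOSL2 regions 41.4 kb downstream and 36.2 kb upstream, each with its own combination. Its −log10 p-value was 15.0 in siNS/siNS (rank 2102 of 2582), 26.0 in siHic5/siNS (rank 3966 of 9533), 18.4 in siCHD9/siNS (rank 742 of 1415) and 52.7 in siBRM/siHic5 (rank 913 of 3383), and it was in neither siCHD9/siHic5 nor siBRM/siNS. The −log10 q-values in siNS/siNS and siCHD9/siNS, 11.2 and 14.1, lay below the cutoff at which the siBRM/siHic5 list ends.

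The region nearest to the FOSB TSS came from the siCHD9/siHic5 list alone. There, 3 GBR lay in the transcribed part of FOSB, 0.342 kb downstream of the TSS in untranslated exon sequence (chr19:45468032-45468714), 2.68 kb downstream in a coding exon (chr19:45470187-45471268) and 4.61 kb downstream in a coding exon (chr19:45472360-45473154). Their −log10 p-values were 15.0, 12.3 and 12.3, ranks 1786, 2225 and 2225 of 2451, so that they were among the weaker GBR of the list. Their −log10 q-values were 11.1, 8.55 and 8.55, of which the last pair lay below the lowest value that the siHic5/siNS list holds (8.91), and all 3 lay below the cutoff of 14.2. No other list had a GBR within 10 kb of this TSS. The 3 GBR were wide, at 683, 1082 and 795 bp against a median of 439 bp in that list.

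FOSL1 and FOSL2 encode FRA-1 and FRA-2, FOS-related proteins that lack the transactivation domain of FOS. FOSL1 had a single GBR, 15.5 kb upstream (chr11:65915618-65916091), called in siHic5/siNS with a −log10 p-value of 13.0, rank 8719 of 9533, and closer to the TSS of C11orf68 than to its own. FOSL2 had 7 regions and no GBR in any list in which CHD9 or BRM was depleted. Its strongest siHic5/siNS GBR lay 2.41 kb upstream (chr2:28390122-28391358, 28.0, rank 3568), and 4 others, 81.0, 52.9, 5.56 and 0.184 kb upstream with −log10 p-values of 15.7, 12.9, 17.8 and 13.1, were likewise in no other list. The GBR 41.4 kb downstream was called in siHic5/siNS (25.5) and in siNS/siNS (13.4). Of all siHic5/siNS GBR, 61.8% were in neither siCHD9/siHic5 nor siBRM/siHic5. The FOSL2 GBR 81.0, 52.9 and 0.184 kb upstream had −log10 q-values of 12.4, 9.77 and 9.97, below the cutoff at which the siBRM/siHic5 list ends. The GBR 36.2 kb upstream was in siNS/siNS (16.1, rank 1862 of 2582) and not in siHic5/siNS, the reverse of the common pattern. This was 1 of the 7 siNS/siNS GBR near the genes, where 3.18% of that list had no siHic5/siNS counterpart.

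JUN, JUNB and JUND encode the JUN proteins, which dimerize with one another and with FOS proteins. No GBR near JUN was called in siNS/siNS. In siHic5/siNS there were 3, 31.2 kb upstream (chr1:58814807-58815528, 22.7, rank 4684), 56.5 kb downstream (13.1) and 2.24 kb downstream, in an untranslated part of JUN (12.3, rank 9264). The last of these overlapped a siCHD9/siHic5 GBR of 2206 bp (chr1:58781798-58784003) that ran over most of the single-exon JUN gene, with its summit 267 bp downstream of the TSS and a −log10 p-value of 16.2. Only 1 GBR in the siCHD9/siHic5 list was wider.

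JUNB was bound in all 6 lists. The region 7.4 kb upstream, in an intron of HOOK2 (chr19:12783736-12784406), had −log10 p-values of 20.6 in siNS/siNS, 36.3 in siHic5/siNS, 11.8 in siCHD9/siNS, 15.9 in siCHD9/siHic5, 11.7 in siBRM/siNS and 33.7 in siBRM/siHic5. In siCHD9/siNS and siBRM/siNS it stood near the end of the list, at ranks 1351 of 1415 and 1227 of 1278, and in each pair of lists the value with Hic-5 depleted was the higher, although −log10 p-values also depend on depth. The region 41.1 kb upstream, near BEST2, was called in every list but siBRM/siNS, with 32.8 in siHic5/siNS, 33.7 in siBRM/siHic5, 16.0 in siNS/siNS, 15.5 in siCHD9/siNS and 15.0 in siCHD9/siHic5. The third, 4.8 kb upstream, was called in siHic5/siNS (17.4) and siCHD9/siHic5 (11.5, rank 2420 of 2451).

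JUND, which is expressed in most resting cells, had 2 regions, both absent from the lists of cells containing Hic-5. The promoter region (chr19:18281527-18282311) had a −log10 p-value of 39.5 in siHic5/siNS (rank 2268) and 21.4 in siBRM/siHic5 (rank 2742 of 3383), with summits 323 and 316 bp upstream of the TSS. The other, 93.0 kb upstream and nearer to GDF15, a stress-induced cytokine gene, was called with 32.8 in siHic5/siNS, 21.4 in siBRM/siHic5 and 12.3 in siCHD9/siHic5. Summits within 1 kb of the TSS were thus present in siHic5/siNS at 3 of the 10 genes (FOS, FOSL2 and JUND), where 2.25% of protein-coding genes had one. Both figures hold at that list's own cutoff. The FOS and FOSL2 GBR had −log10 q-values of 12.9 and 9.97, below the common cutoff of 14.2, and the JUND GBR had 35.7. Only JUND therefore keeps such a summit at the common cutoff, for which the share of all genes was not computed.

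BATF, BATF3 and ATF3 encode smaller zipper proteins, of which ATF3 is induced by stress and BATF and BATF3 act mainly in lymphoid and dendritic cells. BATF held the strongest GBR near any of the 10 genes, in its own intron 13.6 kb downstream of the TSS (chr14:75535609-75536539). It was called in all 6 lists, with −log10 p-values of 97.3 in siNS/siNS (rank 108 of 2582), 247 in siHic5/siNS (rank 36 of 9533), 75.9 in siCHD9/siNS (rank 82 of 1415), 124 in siCHD9/siHic5 (rank 66 of 2451), 66.0 in siBRM/siNS (rank 78 of 1278) and 216 in siBRM/siHic5 (rank 75 of 3383). It was among the top 6.10% of every list and the top 0.378% of siHic5/siNS. The other BATF GBR, 30.7 kb upstream (20.1) and 1.60 and 11.9 kb downstream (33.7 and 18.1), were called in siHic5/siNS and in no other list. ATF3 and BATF3, whose TSS are 91.1 kb apart, had no GBR within 100 kb in any list. Their nearest siHic5/siNS GBR lay 379 and 470 kb away, and their nearest siNS/siNS GBR 1350 and 1441 kb away.

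**Figure D3:**
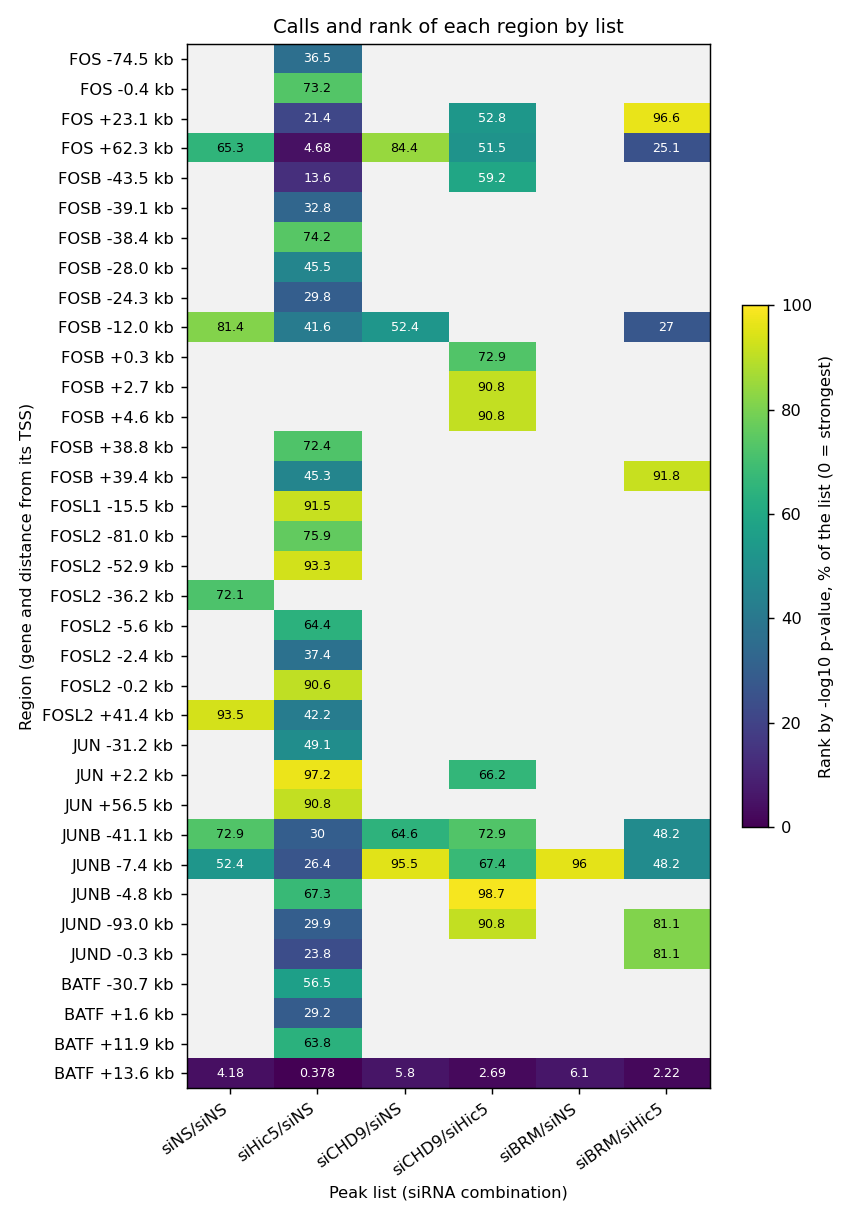
Calls at the 35 regions (y axis) in the 6 lists (x axis). A filled cell is a called GBR, colored and labelled by its rank by −log10 p-value as a percentage of the list (0 is the strongest), and a pale cell is no call. BATF +13.6 kb and JUNB -7.4 kb have 6 filled cells, and 18 regions are filled in the siHic5/siNS column alone.

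The patterns of calls were next set beside those of all siHic5/siNS GBR. Of the 31 siHic5/siNS GBR near the genes, 25 had no siNS/siNS GBR at the same place, where 74.0% of the whole list had none, and 2 were called in all 6 lists, where 9.25% were. Double depletion was accompanied by the absence of 22 of the 31 in siCHD9/siHic5 (75.4% of the whole list) and of 22 in siBRM/siHic5 (65.4%), and 19 were in neither (61.8%). In all, 18 were in no other list, where 58.7% of the whole list were not. These member counts lay near the shares of the whole list. The equal counts in both double depletions rest on unequal cutoffs. With all lists held to a −log10 q-value of 14.2, 18 of 21 were absent from siCHD9/siHic5 (78.2% of the whole list) and 12 of 21 from siBRM/siHic5 (50.5%). At the other end, all 9 siBRM/siHic5 GBR near the genes had a siHic5/siNS counterpart, and 1.86% of that list lacked one. Of the 12 siCHD9/siHic5 GBR near the genes 3 lacked one, where 3.43% of that list did, and all 3 were those in FOSB exons, whose low −log10 q-values are given above.

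The strength of the GBR within the siHic5/siNS list lay near that of the list as a whole. The 31 GBR had a median −log10 p-value of 24.2 (range 12.3 to 247), against 22.4 for all 9533, and a median width of 585 bp against 506 bp. The 6 that were also called in siNS/siNS had a median of 34.6, and the 25 that were not had a median of 20.1, where the medians over the whole list were 54.7 and 18.7. The strongest of the 25 was the GBR 43.5 kb upstream of FOSB, and the strongest of the 6 was that in BATF.

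**Figure D4:**
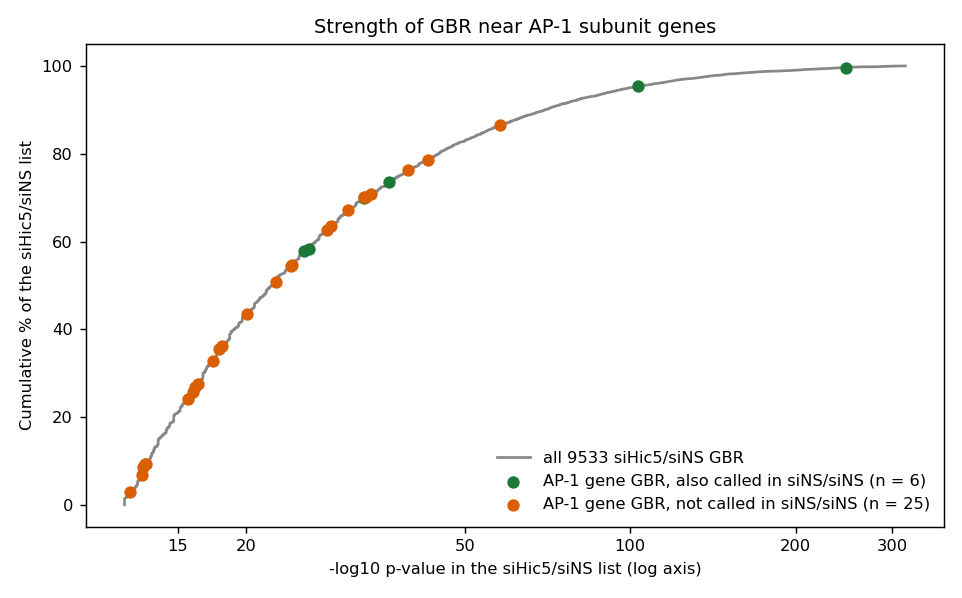
Cumulative percentage of the 9533 siHic5/siNS GBR (y axis) against their −log10 p-value (x axis, log scale), with the 31 GBR near AP-1 subunit genes placed on the curve. The 6 GBR also called in siNS/siNS (green) lie between 25.5 and 247, and the 25 others (orange) between 12.3 and 57.9.

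Motifs were searched in the 1 kb around each siHic5/siNS summit, on both strands. A GRE match was found at 10 of the 31 GBR, where 53.6% of all siHic5/siNS GBR had one. AP-1 matches (TGACTCA or TGAGTCA) were found at 13 of 31 (37.1% of all), and ETS matches at 13 of 31 (37.9% of all). The GBR near AP-1 subunit genes thus had a GRE match less often than the list as a whole in this count, which was not tested. In the 1 kb window they had AP-1 and ETS matches at shares near those of the list. In a window of 200 bp a GRE match was found at 9 of 31 (46.2% of all), an AP-1 match at 9 of 31 (19.5%) and an ETS match at 4 of 31 (13.9%). At 7 of the 31 none of these was found (16.2% of all). The closest GRE lay at a median of 15.5 bp from the summit (10 GBR), the closest AP-1 match at 75 bp (13 GBR) and the closest ETS match at 165 bp (13 GBR).

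The genes differed in which motif had a match. GRE matches lay at 3 of the 4 GBR of FOS, 3 of 6 of FOSL2, 2 of 3 of JUNB and 2 of 4 of BATF, and at none of the 8 GBR of FOSB, the 3 of JUN, the 2 of JUND or the 1 of FOSL1. FOSB had AP-1 matches at 5 of its 8 GBR and ETS matches at 4, and FOSL1 had an AP-1 match at the summit. Of the 6 GBR also called in siNS/siNS, 4 had a GRE (66.9% of such GBR in the whole list), and of the other 25, 6 had one (48.9%). The GBR at FOSB -12.0 kb had AP-1 matches 144 bp to the left and 72 bp to the right of its summit and no GRE or ETS match, and the JUNB -7.4 kb region, called in all 6 lists, had an ETS match and no GRE.

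CRE and CArG matches were rarer. A CRE was found at 3 of the 31 GBR (JUND -0.3 kb, FOSB -24.3 kb and FOSB +38.8 kb), where 1.07% of all siHic5/siNS GBR had one, and a CArG box at 3 (FOS -0.4 kb, FOSB -39.1 kb and JUNB -41.1 kb), where 5.71% had one. In a window of 200 bp around the summit a CRE was found at 0 of the 31 (0.430% of all) and a CArG box at 0 (0.944% of all). Of the 10 genes, 8 matched a RefSeq promoter. Among 35116 RefSeq promoters, in the 250 bases before the TSS, 1.65% held a CRE and 15.6% an ETS match, and of the matched genes JUND held the CRE shown above and JUNB an ETS match at -149 to -142. FOS and FOSL2 were the other genes whose 250 bases were overlapped by a GBR, in siHic5/siNS. A match is a description of the letters and not a measured binding site for the factor.

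**Figure D5:**
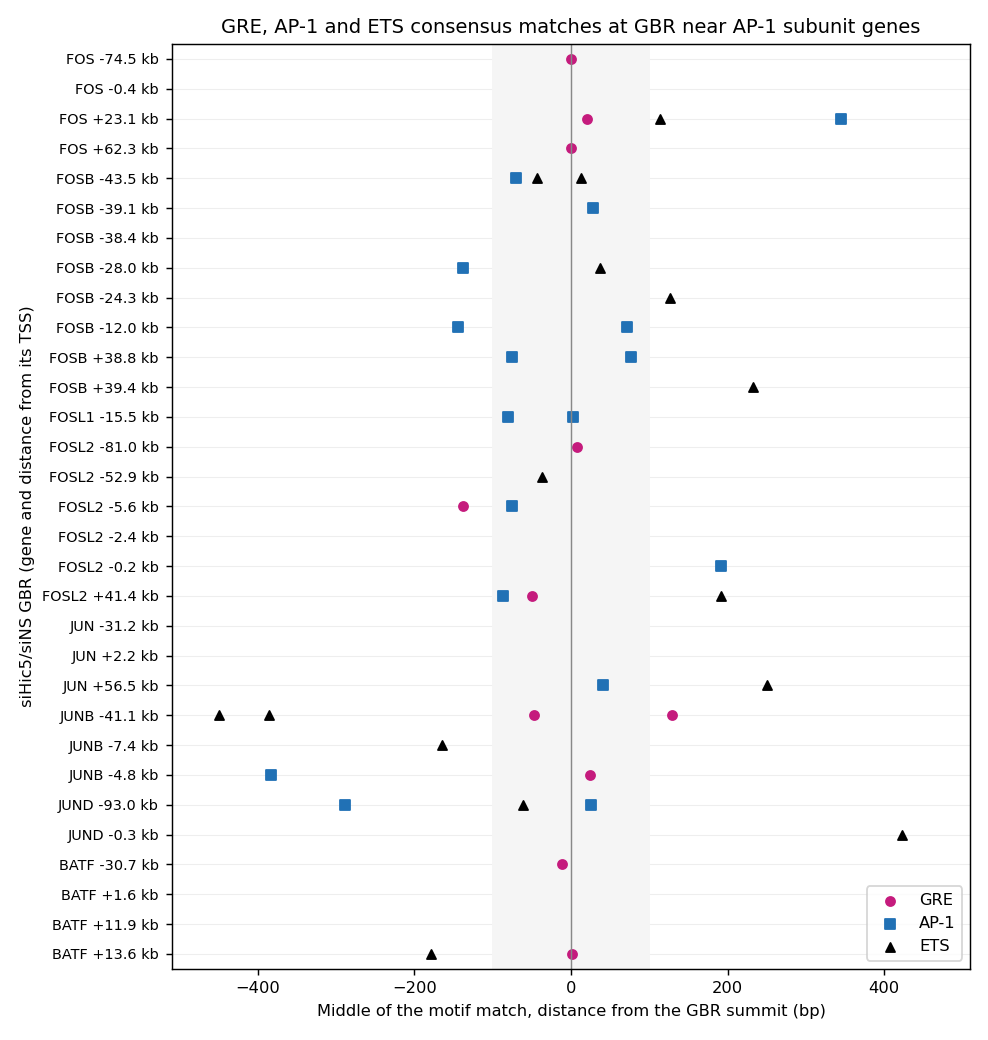
Position of GRE (circles), AP-1 (squares) and ETS (triangles) matches relative to the summit (x axis, bp along the plus strand; shaded band, 100 bp to either side) at the 31 siHic5/siNS GBR (y axis). The 10 GBR with a GRE have the closest one at a median of 15.5 bp from the summit, and ETS matches lie farther out, at a median of 165 bp.

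Other genes of the pathway were counted from lists of named genes, in the same 100 kb window. Each gene was counted separately, so these counts can include GBR shared with a neighbouring gene or already assigned to an AP-1 subunit gene. Of 15 bZIP partners and competitors of AP-1, 9 had a GBR in siHic5/siNS and 6 in siNS/siNS. Among them were MAFF (7 and 1 GBR) and MAFK (6 and 1), small MAF proteins, and JDP2 (3 and 1), a repressor that binds JUN. JDP2 lies between FOS and BATF, and its GBR are ones already assigned to these genes, so they are not additional. Of 13 kinases and regulators upstream of AP-1, 8 had a GBR in siHic5/siNS and 4 in siNS/siNS. DUSP1, a phosphatase that inactivates MAP kinases, had 6 GBR in siHic5/siNS and 2 in siNS/siNS, and SRF, which binds the CArG box, had 3 and 0. Of 14 known AP-1 target genes, 10 had a GBR in siHic5/siNS and 4 in siNS/siNS. HMOX1, the heme oxygenase gene, and TIMP1, a metalloproteinase inhibitor gene, had 6 GBR in siHic5/siNS and 1 in siNS/siNS each. IL6, PLAU and CCND1 had none in any list. Nor did ATF2, ATF4, ATF7, BATF2, BACH1 and NFE2L2 among the partners, or MAPK3, MAPK8, MAP2K7, MAP3K1 and ELK4 among the regulators. Shares of all protein-coding genes with a GBR, as given above, were 43.6% for siHic5/siNS and 17.0% for siNS/siNS.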

How the data were processed

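GR ChIP-seq was performed on 12 libraries, with 6 input libraries. Per the submitters' processing notes BWA, MACS2 and DiffBind were used with GRCh38/hg38, and the study's methods name MACS2 with the IDR framework. The peak names in the deposited lists mark them as called on pooled replicates. Versions are not given in the sources used here. The deposited lists hold, for each peak, a signal value made by the authors, and the authors' −log10 p-value and −log10 q-value. The sources differ on whether the signal is fold enrichment or a normalized coverage, so it was not used to compare lists. −log10 values were used to rank peaks within a list, where tied values share a rank, and they depend on depth. Every peak in the lists was used, and columns left unused for want of a sample numbered 0.

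GBR were matched between lists by an overlap of at least 1 bp, and overlapping GBR were merged into regions. Annotation came from GENCODE release 44 and promoters from RefSeq (GRCh38.p14). Motifs were exact matches, except the GRE (15 bases, 10 defined, 1 mismatch allowed). Tested on simulated data were the overlap counts, against bedtools, and the search for motifs. All 10 genes and all their regions were named, and for each gene the region with the highest −log10 p-value and the one nearest the TSS were described in every list. The genes and gene lists were chosen with earlier results of these data known. Alternatives were a 50 kb window, any annotated TSS, 1 cutoff for all lists, other overlap rules and a motif window of 200 bp. Computations used Python 3.11.15, NumPy 2.4.6, pandas 2.3.3, pysam 0.24.0, Matplotlib 3.10.9, bedtools 2.31.1 and samtools 1.23.1. Coordinates count from 1. Sequences of FOSL1 and BATF3 promoters were not analysed here.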

Additional observations from a re-analysis of the deposited data

Results flagged for a closer look

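The FOSB region 12.0 kb upstream of the TSS stood out because the difference in calls with and without Hic-5 depletion ran in opposite directions with CHD9 depleted and with BRM depleted. With CHD9 depleted it was called in siCHD9/siNS, with a −log10 p-value of 18.4, and not in siCHD9/siHic5. With BRM depleted it was not called in siBRM/siNS and was called in siBRM/siHic5, with a −log10 p-value of 52.7. At 1 cutoff for all lists (−log10 q-value 14.2) the siCHD9/siNS call, at 14.1, falls away, so that the region is called in neither list with CHD9 depleted and the opposite direction is lost. The difference was not tested, since each list is 1 value per condition.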

How the results depend on the processing

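Of the 57 values recomputed under the alternatives, 46 stayed within 1.5 times the main value and 11 did not. Most that moved did so when all lists were held to 1 cutoff, a −log10 q-value of 14.2, which by construction removes GBR from every list but siBRM/siHic5. GBR near the genes then numbered 2 of 1589 in siNS/siNS and 1 of 731 in siCHD9/siNS. In siCHD9/siHic5 they numbered 3 of 1427, and in siBRM/siNS 1 of 637. The genes with a GBR in these lists numbered 2, 1, 2 and 1. Shares of all protein-coding genes at this cutoff were not computed. The regions numbered 21, and of 21 siHic5/siNS GBR 12 had no siBRM/siHic5 GBR (50.5% of the whole list at this cutoff), 18 no siCHD9/siHic5 GBR (78.2%) and 19 no siNS/siNS GBR (76.1%). In a window of 200 bp the ETS motif was found at 4 of 31 GBR, where 13.9% of all siHic5/siNS GBR had one. The 50 kb window, any annotated TSS, an overlap of 50% of the shorter peak and summits within 200 bp moved none of the counts recomputed under them by over 1.5 times. No paired analysis was possible because the lists pool the replicates and the results come from no test. Leaving out a replicate was not possible for the same reason.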

Other observations

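The GBR in FOSB exons that were called in siCHD9/siHic5 and not in siHic5/siNS belonged to a small set. Of the 84 siCHD9/siHic5 GBR without a siHic5/siNS GBR, 17 had their summit in an exon (20.2%), against 93 of the 2367 others (3.93%). The 17 lay in 11 genes, which were named after their values were seen: FOSB (3 GBR), EGR1, another immediate-early gene, the actin genes ACTB and ACTG1, the keratin genes KRT8 and KRT19, RHOB, BTG2, CTSD, SLC39A6 and ABCB9. The 2 EGR1 GBR had −log10 p-values of 17.8 and 15.9, and one of them was 1918 bp wide, as the JUN GBR of 2206 bp in the same list was. Transcript levels of these genes were not analysed here, and their part in these calls was not tested.

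Near JUND and JUN, GBR beyond 100 kb were stronger than those within in some lists. The GBR nearest outside the JUND window in siBRM/siHic5 lay 261 kb downstream of the TSS, with a −log10 p-value of 364 and rank 10 of 3383. The one nearest outside the JUN window in the 4 lists with CHD9 or BRM depleted lay 146 kb upstream, with 16.6 in siCHD9/siNS, 38.8 in siCHD9/siHic5, 23.3 in siBRM/siNS and 69.6 in siBRM/siHic5. In the other 2 lists the nearest lay 138 kb upstream, with 24.8 in siNS/siNS and 28.6 in siHic5/siNS.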
